A study of Oryza sativa with 23 samples.

Results

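This account covers the difference between 2 rice backgrounds in the roots of well-watered plants, on 10 of the 23 arrays of the series. The IR64 background was IR64-WT (3 arrays, replicates 1, 2 and 3) and IR64-Tr-E2 (2 arrays, replicates 1 and 3), a transgenic line of IR64 from 1 event that overexpresses OsNAM12.1 of the donor Way Rarem. The Vandana background was the cultivar Vandana (2 arrays, replicates 1 and 3) and NIL-481-B (3 arrays), a near isogenic line of Vandana that carries the Way Rarem segment qDTY12.1 on chromosome 12. Arrays were chosen by their labels for genotype and well-watered treatment, with a single exception given below. All plants were sampled at 25 days after sowing. The IR64 background stood in wetter soil, at 1.2 times field capacity, and the Vandana background at field capacity itself, so that background and water level cannot be told apart in any well-watered difference given here. Labelled root RNA was hybridised to a custom Agilent array with a probe for each of 52901 rice transcripts, and each probe carried the locus identifier of its transcript. The methods do not state whether roots of several plants were pooled for an array, and p values then measure the spread between these arrays, which may be partly technical.

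IR64 is a lowland indica cultivar bred for flooded fields, and Vandana is an upland cultivar grown under rain in aerobic soil. Rice cultivars differ in the promoters, coding sequences and presence of many genes, and disease resistance genes of the nucleotide-binding leucine-rich repeat class are known for such variation. Wet soil holds less oxygen than drained soil, and rice roots answer low oxygen with fermentation genes such as alcohol dehydrogenase and pyruvate decarboxylase. A probe of a fixed sequence reads the RNA that matches it. A low signal in 1 cultivar can thus be less RNA or a transcript that matches the probe less well, and which of these applied was not tested.

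The exception was the well-watered array of Vandana labelled replicate 2, which was left out because of its expression and not because of its label. Across all probes its correlations with the 2 backgrounds overlapped. They were 0.953, 0.943 and 0.917 with IR64-WT replicates 1, 2 and 3 and 0.935 and 0.957 with IR64-Tr-E2, against 0.941 and 0.875 with the other Vandana arrays and 0.941 to 0.948 with NIL-481-B. Every count below rests on this choice. With the array kept under its label, 0 probes passed in limma under either adjustment of p (lowest Benjamini-Hochberg adjusted p = 0.0864), although 3869 of 52900 probes had an unadjusted p below 0.05. The 2 remaining Vandana arrays also differed in quality. Across all probes the kept replicate 3 correlated at 0.873 with Vandana replicate 1 and at 0.869 to 0.884 with NIL-481-B. With IR64-WT replicates 1, 2 and 3 it correlated at 0.851, 0.853 and 0.911, and with IR64-Tr-E2 at 0.908 and 0.896. By this measure the kept array was no closer to its own background than the array left out. The share of spots well above background was 57.3% on replicate 1 and 31.6% on replicate 3, beside 51.1% to 59.9% for NIL-481-B, 35.3% to 64.2% for IR64-WT and 43.8% to 44.1% for IR64-Tr-E2. The ranges of the 2 backgrounds overlapped.

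The labelled tissue was checked on root markers. Of 8 root markers, 6 were well above background on all 10 arrays and 0 were called between backgrounds. Their summed signal lay between 8518 and 14921 in the IR64 background and between 5830 and 14678 in the Vandana background. Only QHB, a marker of the quiescent centre, was at background on all 10 arrays. Of 7 markers of green shoots, 3 were well above background on all 10 arrays and 0 were called. Their summed signal lay between 425 and 16061 in the IR64 background and between 281 and 15025 in the Vandana background. Green marker signal thus differed widely between arrays within each background, and its highest sum lay above the highest sum of the root markers. The source of this signal was not tested. In root tissue read as a whole, fewer cells of a type and less RNA per cell cannot be told apart.

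The transgene target is given first. The probe of OsNAM12.1 (LOC_Os12g29330), a transcription factor of the NAC family, read 6.87, 6.88 and 6.96 in IR64-WT and 7.47 and 7.08 in IR64-Tr-E2, and 7.02, 6.72 and 7.29 in NIL-481-B and 7.0 and 7.51 in Vandana, as normalised log2 signal. IR64-Tr-E2 was 0.37 above IR64-WT on the log2 scale (limma, adjusted p = 0.999). The backgrounds overlapped and differed by -0.04 (SE 0.19, adjusted p = 1.00), so that a difference in OsNAM12.1 was not detectable between lines or between backgrounds. Whether the transgene transcript holds the probe's target is not given in the sources used here. By quantitative PCR on roots at the heading stage, the paper reports over-expression of OsNAM12.1 in IR64-Tr-E2. It also reports a well-watered level in NIL-481-B below that of both parents. Stage and method there differ from those of these arrays.

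Between the backgrounds 123 of 52900 probes tested (0.233%) differed by more than 2-fold with a Bonferroni-adjusted p below 0.05 in limma, the threshold of the study's methods. Of these, 63 were higher in the IR64 background (0.119%) and 60 lower (0.113%). At a Benjamini-Hochberg adjusted p below 0.05 and more than 2-fold, 713 probes (1.35%) passed, 336 higher (0.635%) and 377 lower (0.713%), and these are called below. On 702 of the 713 the 5 arrays of one background all lay above the 5 of the other, which was so for 3.04% of all probes (1.51% higher and 1.53% lower in the IR64 background). The median size of a called difference was 6.57-fold as fitted. At 367 of the 713 a background was well above background on none of its arrays, and with these at their lower bound the median was 3.78-fold, with 335 probes over 4-fold and 156 over 8-fold. The median over all probes tested was 0.02 on the log2 scale. Within each background the same fit called no probe: 0 passed either threshold between IR64-Tr-E2 and IR64-WT (1979 had an unadjusted p below 0.05) and 0 between NIL-481-B and Vandana (1383 had one). Both comparisons rest on few arrays. Without Vandana replicate 1, 18 probes passed at Bonferroni and 791 at Benjamini-Hochberg between NIL-481-B and Vandana, and without Vandana replicate 3, 4 and 11 did. Without IR64-Tr-E2 replicate 1, 4 and 24 passed between IR64-Tr-E2 and IR64-WT. Each of these fits leaves a genotype with 1 array, whose spread is then taken from the rest. With 1 array left out in turn, the count between backgrounds was 60 to 98 at Bonferroni. It was 93 without IR64-WT replicate 3, 97 and 98 without Vandana replicates 1 and 3, and 60 to 80 without any of the other 7. At Benjamini-Hochberg it was 452 without IR64-Tr-E2 replicate 3 and 489 to 965 without any other array. On 591 of the 713 called probes, and on 111 of the 123, the 2 lines of each background lay within 2-fold of each other. The same share over all probes was not taken, so that this is not read as a trait of the called probes.

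Of the 4 slides, 3 carried both backgrounds, and IR64-WT replicate 1 was the only array used from slide 4. All 713 called probes kept their direction within each of slides 1, 2 and 3. The difference exceeded 2-fold for 696, 673 and 704 of them, and for all 123 of the stricter set on each of the 3 slides. These slides hold the arrays on which the probes were called, and at 702 of the 713 the backgrounds did not overlap. At those probes the direction was fixed in advance, so that it is no separate support for the calls. With slide as a block in the fit, 6 probes passed at Bonferroni (4 higher and 2 lower) and 319 at Benjamini-Hochberg (155 higher), of which 312 were among the 713.

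Few of the called loci were bright enough to be read on every array. Of the 713, 84 were well above background on all 5 IR64-background arrays and none of the Vandana background, and 80 showed the reverse. Only 104 were well above background on all 10 arrays, 48 of them higher in the IR64 background. A further 8 were well above background on none of the 10, and the remaining 437 on some. Among all 52900 probes tested, 84 were read on all 5 arrays of the IR64 background and none of the other, and 91 the other way round, so that nearly every such probe was called.

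Of the 123 loci of the stricter set, 6 were well above background on all 10 arrays. The files annotate none of them beyond the locus. LOC_Os11g04790 on chromosome 11 read 11.77, 12.13 and 11.96 in IR64-WT and 11.52 and 11.95 in IR64-Tr-E2, against 8.13, 8.88 and 8.23 in NIL-481-B and 7.95 and 7.21 in Vandana. The backgrounds were apart by 3.85 on the log2 scale (14.4-fold, SE 0.24, adjusted p = 0.000162). LOC_Os09g12210 on chromosome 9 read 11.13, 11.30 and 11.25 in IR64-WT and 11.06 and 11.17 in IR64-Tr-E2, against 8.01, 8.74 and 8.01 in NIL-481-B and 7.82 and 6.90 in Vandana. It was 10.3-fold higher in the IR64 background (log2 3.36, SE 0.24, adjusted p = 0.000371). At both of these loci the lowest Vandana-background array was Vandana replicate 3 and the highest NIL-481-B replicate 2. LOC_Os01g41565 on chromosome 1 ranged from 7.93 to 8.55 in the IR64 background and from 5.06 to 5.92 in the other, a difference of 6.09-fold (log2 2.61, SE 0.19, adjusted p = 0.000404).

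The other 3 were higher in Vandana and NIL-481-B. LOC_Os01g03680 on chromosome 1 read 7.49, 6.01 and 6.62 in IR64-WT and 6.77 and 6.60 in IR64-Tr-E2, against 11.13, 11.51 and 12.05 in NIL-481-B and 11.06 and 11.31 in Vandana, and was 25.6-fold lower in the IR64 background (log2 -4.68, SE 0.32, adjusted p = 0.000249). LOC_Os08g06415 on chromosome 8 read 9.66, 9.56 and 9.23 in IR64-WT and 8.95 and 9.54 in IR64-Tr-E2, against 13.86, 13.58 and 13.35 in NIL-481-B and 13.59 and 12.44 in Vandana, so that it was well read in both backgrounds while they stood 15.4-fold apart (log2 -3.94, SE 0.27, adjusted p = 0.000276). LOC_Os05g06530 on chromosome 5 ranged from 5.47 to 5.94 and from 7.81 to 8.17, a 4.52-fold difference (log2 -2.18, SE 0.16, adjusted p = 0.000366). None of the 6 loci overlapped between backgrounds, which was a condition of their choice and held for all 123 of the stricter set. The array left out read 11.95 at LOC_Os11g04790 and 6.40 at LOC_Os01g03680, both inside the range of the IR64 background. Over the 713 called loci it was nearer the IR64 mean at 671 and inside the range of the other Vandana-background arrays at 21. The array was left out for its likeness to IR64 and the loci were called without it, so that these values describe the choice and do not test it.

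**Figure D1:**
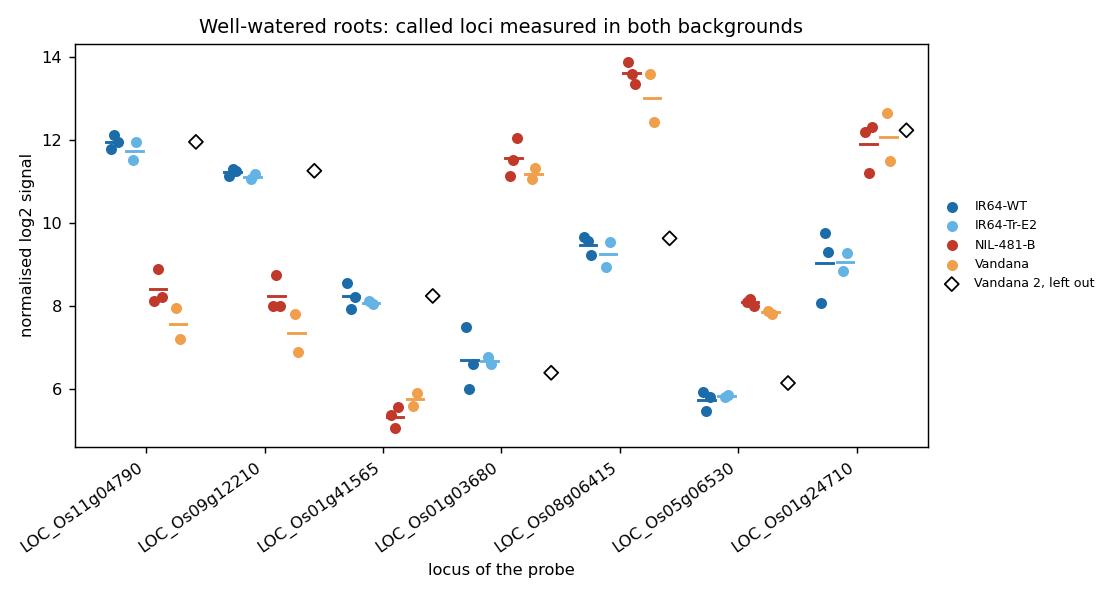
Normalised log2 signal (vertical axis) of the 6 called loci well above background on all 10 arrays and of SALT (LOC_Os01g24710), with 1 point per array, coloured by genotype, and a bar at the mean of each genotype. Open diamonds are the Vandana array left out. At all 7 loci the 5 arrays of one background lie apart from the 5 of the other. For the 6 this was a condition of their choice. At SALT alone the left-out array lies with the Vandana background.

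Where a background had no array well above background, the difference is a lower bound, set against the dimmest signal that still counted as well above background on its arrays. Among 46 loci of the stricter set read on all IR64-background arrays alone, the largest bound was at LOC_Os06g01760 on chromosome 6, at least 204-fold higher in the IR64 background (adjusted p = 1.11e-05). Its signal was 11.15, 11.78 and 10.98 in IR64-WT and 10.81 and 10.94 in IR64-Tr-E2, against 2.49, 1.67 and 1.45 in NIL-481-B and 1.39 and 2.29 in Vandana. LOC_Os07g03279 on chromosome 7 followed at least 103-fold higher, with 9.65 to 10.58 against 1.11 to 2.2 (adjusted p = 1.11e-05). Next came LOC_Os08g08360, at least 33.6-fold (adjusted p = 2.93e-05), LOC_Os08g08650, at least 32.5-fold (adjusted p = 2.70e-05), and LOC_Os11g46860, at least 29.8-fold (adjusted p = 1.74e-05). At all 5 loci every array of the Vandana background lay at or below 2.49, while the left-out Vandana array read 11.94, 9.83, 8.42, 8.45 and 7.52 in the order given.

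In the other direction 34 loci of the stricter set were read on all Vandana-background arrays alone. LOC_Os11g14544 on chromosome 11 was at least 91.4-fold lower in the IR64 background (adjusted p = 0.000195). It read 10.89, 10.53 and 10.49 in NIL-481-B and 10.69 and 8.90 in Vandana, against 3.33, 1.29 and 1.94 in IR64-WT and 1.53 and 2.89 in IR64-Tr-E2. LOC_Os11g19149, also on chromosome 11, was at least 56.9-fold lower, with 1.12 to 2.71 in the IR64 background and 8.75 to 9.95 in the other (adjusted p = 1.52e-05). LOC_Os01g35330 was at least 48-fold lower (adjusted p = 1.11e-05), LOC_Os06g13560 at least 46.8-fold (adjusted p = 1.96e-05) and LOC_Os11g29110 at least 34.3-fold (adjusted p = 0.000102). Of these 10 loci, 4 lie on chromosome 11. LOC_Os05g10414 on chromosome 5, named here after its values were seen, falls outside these groups. It read 12.84, 12.65 and 12.93 in IR64-WT and 13.28 and 12.80 in IR64-Tr-E2, against 3.55, 1.36 and 1.48 in NIL-481-B and 1.45 and 1.63 in Vandana. Only 1 array of the Vandana background, NIL-481-B replicate 1, was well above background there, so that the size of the difference depends on the floor (adjusted p = 1.74e-05).

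**Figure D2:**
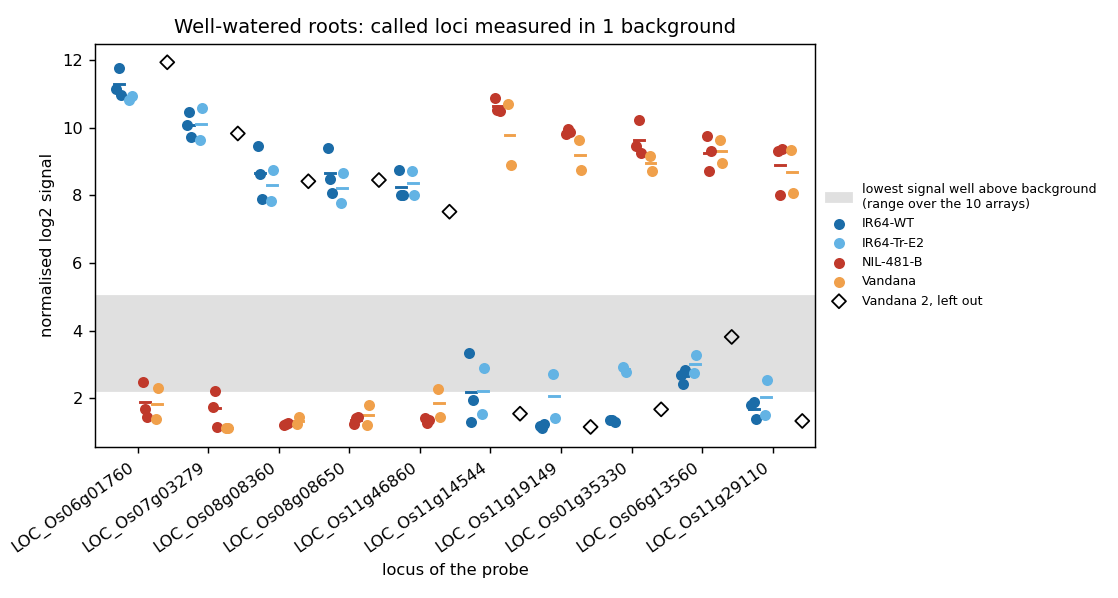
Normalised log2 signal (vertical axis) of the 10 loci with the largest lower bounds of fold among loci read in 1 background alone, with 1 point per array, a bar at each genotype mean and open diamonds for the left-out Vandana array. The grey band spans the dimmest such signal on the 10 arrays (2.22 to 5.01), and the bright background lies above 7.5 at every locus.

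Descriptions of the proteins were at hand for 13 of the 713 called loci, those that also stand in a list the study made from these arrays. They are given because they can be named, and the list was made on these samples. LOC_Os03g48320, described as a disease resistance protein like RPP13, a class that recognises pathogen effectors, was lower in the IR64 background by 4.49 on the log2 scale (SE 0.24, adjusted p = 6.98e-05). It read 3.95, 3.69 and 3.95 in IR64-WT and 1.14 and 2.11 in IR64-Tr-E2, against 7.44, 7.48 and 7.50 in NIL-481-B and 7.35 and 6.65 in Vandana. The 2 IR64-Tr-E2 arrays were the lowest of the 10, and 2 of the 5 IR64-background arrays were well above background. LOC_Os11g46200, a protein of the leucine-rich repeat family, was lower as well, at least 5.24-fold (1.78 to 3.66 against 5.45 to 6.78, adjusted p = 0.012). LOC_Os11g35274, described as a protein kinase, was read on 3 arrays of the IR64 background and none of the other, with 4.16 to 5.54 against 1.20 to 1.28 (adjusted p = 5.74e-05). LOC_Os12g43440, a thaumatin, a family of the pathogenesis-related proteins, was 11-fold higher in the IR64 background, with 7.78, 9.88 and 9.37 in IR64-WT and 8.06 and 9.33 in IR64-Tr-E2, against 5.51, 4.75 and 5.87 in NIL-481-B and 5.55 and 5.27 in Vandana (SE 0.47 on the log2 scale, adjusted p = 0.0109).

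LOC_Os08g08960, a cupin domain protein, read 5.74, 4.46 and 2.57 in IR64-WT and 4.75 and 3.62 in IR64-Tr-E2, against 9.84, 8.01 and 10.11 in NIL-481-B and 11.16 and 9.54 in Vandana. The difference was -5.62 on the log2 scale, with a wide error (SE 0.72, adjusted p = 0.00856), and 3 of the 5 IR64-background arrays were well above background. LOC_Os09g02270, of the cyclase family, was 22.2-fold lower, with 4.17 to 6.36 against 8.68 to 10.06 (adjusted p = 0.00307). LOC_Os06g37224, a cytochrome P450, an oxidase class of secondary metabolism, read 1.33 to 3.64 against 4.67 to 6.67 (adjusted p = 0.00813), with 1 of the 5 IR64-background arrays well above background. LOC_Os06g19800, a BURP domain protein, was 3.63-fold lower (7.75 to 8.74 against 9.58 to 10.81, adjusted p = 0.0341). Among regulators, the F-box protein OsFBX240 (LOC_Os07g35130), of a class that marks proteins for degradation, was higher in the IR64 background (3.36 to 4.54 against 1.02 to 1.83, adjusted p = 0.00106). The MYB transcription factor LOC_Os08g33150 was lower and close to the threshold (3.27 to 4.46 against 4.75 to 5.51, adjusted p = 0.0458), with 2 and 4 arrays well above background. The other 3 loci were a transposon protein, given with qDTY12.1, and 2 described only as expressed proteins.

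Functional groups of root genes were described next, on 14 lists with 164 distinct loci measured. Of these loci 1 was called, and 1.35% of all probes were. That locus was SALT (LOC_Os01g24710), a mannose-binding lectin induced in rice by salt, drought and abscisic acid. Its probe read 8.07, 9.75 and 9.31 in IR64-WT and 8.84 and 9.29 in IR64-Tr-E2, against 12.19, 11.20 and 12.30 in NIL-481-B and 12.63 and 11.49 in Vandana. SALT was 7.61-fold lower in the IR64 background (log2 -2.93, SE 0.42, adjusted p = 0.0139), and within slides 1, 2 and 3 the difference was -3.57, -1.45 and -2.60. No array of one background overlapped the other. The left-out Vandana array read 12.23, inside the range of the Vandana background, unlike at the loci of the stricter set. The call was lost with slide or replicate number as a block, without either IR64-Tr-E2 array and without NIL-481-B replicate 1. It was also lost with the left-out array kept under its label, and without the line IR64-Tr-E2 or the line NIL-481-B.

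The other 15 genes of the abscisic acid and drought list were not called. The dehydrins RAB16B and RAB16C, proteins that accumulate in drying cells, differed by -0.02 and 0.18 on the log2 scale, and NCED3, which makes the precursor of abscisic acid, by -0.03. Of the 16 differences in the list 11 were negative and 5 positive. The median of the list was -0.10 beside 0.02 over all probes. Without the line IR64-Tr-E2 it was -0.35, with 13 of 16 negative. In the list of hypoxia and fermentation 0 of 16 genes were called, 12 had a positive difference and the median was 0.29. Under the 75th-percentile shift, where the median of all probes moved to 0.23, that of the list was 0.30, so that its height above all probes fell from 0.27 to 0.07. Without the line IR64-Tr-E2 the median was 0.05, with 7 of 16 negative. ADH2, an alcohol dehydrogenase of fermentation, read 7.27, 8.01 and 7.63 in IR64-WT and 7.91 and 10.30 in IR64-Tr-E2, against 7.46, 5.70 and 7.45 in NIL-481-B and 7.45 and 7.44 in Vandana. The ranges overlapped (difference 1.21, SE 0.54, adjusted p = 0.675), with IR64-Tr-E2 replicate 3 highest and NIL-481-B replicate 2 lowest. ADH1 differed by 0.50 and the pyruvate decarboxylases PDC1, PDC2 and PDC3 by 0.98, 0.46 and 0.30, and 0 of these passed.

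All 15 aquaporin probes, water channels of the plasma membrane (PIP) and the vacuole (TIP), had a negative difference, with a median of -0.52 (range -0.86 to -0.05), and 0 were called. The lowest adjusted p was 0.667. Of the 15, 12 were well above background on all 10 arrays, and the arrays of the 2 backgrounds overlapped at all of them. PIP2;5 read 11.76, 12.38 and 11.55 in IR64-WT and 10.89 and 11.06 in IR64-Tr-E2, against 12.93, 10.74 and 12.95 in NIL-481-B and 13.20 and 11.59 in Vandana (difference -0.86, SE 0.53, adjusted p = 0.93). Some members share much of their sequence, and probes of such copies may not be separate readings. Without Vandana replicate 1 the median was -0.21 with 11 of 15 negative, and without NIL-481-B replicate 2 it was -0.82. Under the 75th-percentile shift it was -0.46 with 11 of 15 negative, beside 0.23 over all probes. Without the line IR64-Tr-E2 it was -0.30 with 14 of 15 negative.

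Among 9 heat response genes 0 were called and the median was -0.62. The small heat shock protein HSP16.9B differed by -2.64 (SE 0.87, adjusted p = 0.372), with 4.54 to 8.08 in the IR64 background and 7.44 to 10.68 in the other. The chaperone HSP101 did not overlap between backgrounds, with 6.65 to 8.05 against 8.53 to 10.10, and did not pass (difference -1.56, SE 0.39, adjusted p = 0.164). In iron acquisition 0 of 14 genes were called (median 0.26), in nitrogen uptake and assimilation 0 of 15 (median -0.12), in phosphate 0 of 9 (median -0.21) and in potassium, sodium and silicon transport 0 of 10 (median -0.08). NIA1, a nitrate reductase, differed by -0.90 (SE 0.34, adjusted p = 0.501), and Lsi2, a silicon efflux transporter, by -1.28 (SE 0.39, adjusted p = 0.3, and -1.74 with 0.0355 without Vandana replicate 1). For gibberellin 0 of 11 genes passed (median -0.31), for root architecture 0 of 8 (median 0.11), for the diterpenoid clusters of defence 0 of 10 (median -0.35) and for the circadian clock 0 of 9 (median 0.01). Of 14 genes known to carry different alleles in rice cultivars 0 were called (median 0.05), and 4 of them were read on none of the 10 arrays. These medians moved with single arrays. With 1 array left out in turn, that of gibberellin ranged from -0.66 to 0.11 (positive without IR64-WT replicate 3 or Vandana replicate 1), and that of the diterpenoid clusters from -1.02 to 0.16 (positive without IR64-Tr-E2 replicate 1 or Vandana replicate 1). The heat list ranged from -1.07 without IR64-Tr-E2 replicate 3 to -0.17 without replicate 1, and the iron list from -0.07 to 0.42 without the same arrays. Phosphate reached 0.06 without Vandana replicate 1, nitrogen 0.08 without IR64-WT replicate 1, and the potassium, clock and cultivar lists also changed sign, so that no direction is given for the lists that changed sign. A call missed at these standard errors does not show that levels were equal.

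**Figure D3:**
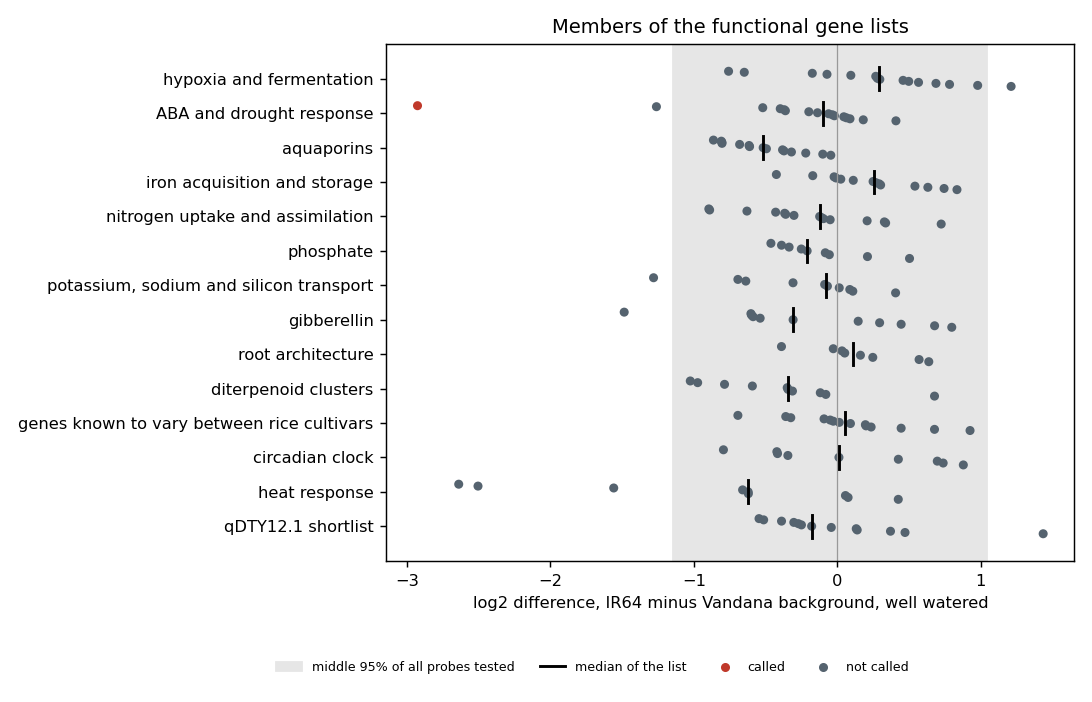
Difference between backgrounds on the log2 scale (horizontal axis) for each measured member of the 14 lists, with 1 point per gene, a black bar at the median of each list and a grey band over the middle 95% of all probes (-1.15 to 1.05). SALT at -2.93 is the 1 called member, and all 15 aquaporins lie below 0 under the quantile normalisation shown.

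Called loci were spread over the 12 chromosomes. The share of probes called was lowest on chromosome 3 (33 of 5403, 0.611%) and highest on chromosome 11 (108 of 3930, 2.75%, 45 higher and 63 lower in the IR64 background), beside 1.35% overall. Chromosome 8 came next with 70 of 3935 (1.78%). In consecutive windows of 40 measured loci, 840 of 1317 windows held no called locus. Of the windows, 2 held 6 called loci, both on chromosome 11. From LOC_Os11g14320 to LOC_Os11g14740 all 6 were lower in the IR64 background, and from LOC_Os11g28670 to LOC_Os11g29200 4 of 6 were higher. No more than position is described here, and the excess on chromosome 11 was not tested.

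Neighbouring called loci of the same direction formed 27 runs with 55 loci, of which 9 runs were higher in the IR64 background. The longest held 3 loci on chromosome 11, none of them well above background on an array of the Vandana background. LOC_Os11g29014 read 3.44 to 4.19 against 1.1 to 1.68, LOC_Os11g29030 5.8 to 6.90 against 1.39 to 3.06, and LOC_Os11g29050 6.57 to 7.85 against 1.1 to 1.53. LOC_Os11g29050 was at least 15.8-fold higher (adjusted p = 2.30e-05) and LOC_Os11g29030 at least 8.49-fold (adjusted p = 0.000455). The other 26 runs held 2 loci. Those with the largest mean differences were LOC_Os08g08650 with LOC_Os08g08655, higher in the IR64 background (at least 32.5-fold and 4.23-fold), and LOC_Os06g16040 with LOC_Os06g16050, lower (at least 8.71-fold and 17.3-fold). At both LOC_Os06g16040 and LOC_Os06g16050 Vandana replicate 3 was the lowest array of its background (5.47 and 6.87, against 7.18 and 8.05 or more on the other 4).

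**Figure D4:**
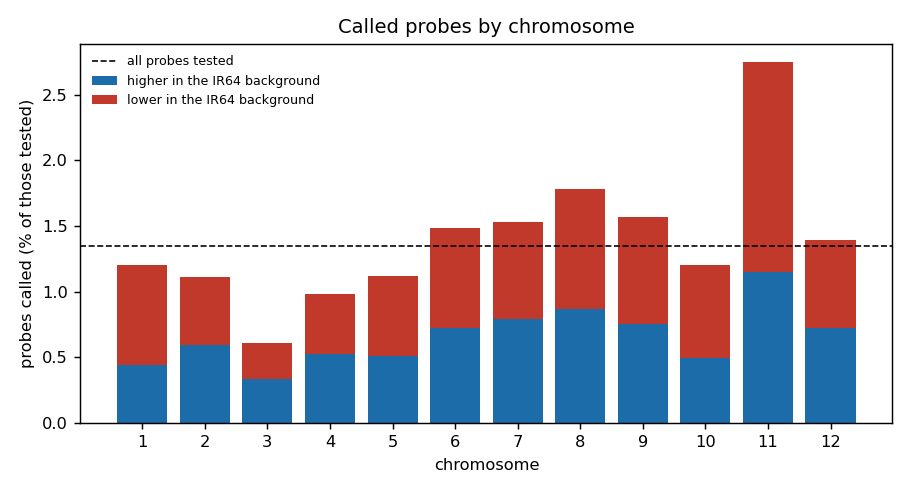
Share of tested probes called on each chromosome (vertical axis, percent), split into loci higher (blue) and lower (red) in the IR64 background, with a dashed line at the share over all probes (1.35%). Chromosome 11 has the highest bar at 2.75% and chromosome 3 the lowest at 0.611%.

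The region qDTY12.1, which NIL-481-B holds from Way Rarem in a mostly Vandana genome, was covered by 273 probes (LOC_Os12g26030 to LOC_Os12g29550). Of these, 6 were called (2.2%, beside 1.35% of all probes), 4 higher and 2 lower in the IR64 background, and 0 between NIL-481-B and Vandana in the same fit. LOC_Os12g26660 read 6.11, 6.23 and 5.62 in IR64-WT and 5.78 and 5.94 in IR64-Tr-E2, against 1.47, 1.76 and 1.13 in NIL-481-B and 1.79 and 1.17 in Vandana (at least 5.7-fold, adjusted p = 4.92e-05). NIL-481-B and Vandana were both at background there. The same held for LOC_Os12g27480, with 5.88 to 6.16 against 1.54 to 2.5 (at least 5.96-fold, adjusted p = 9.73e-05), and for LOC_Os12g27980, a transposon protein, with 4.96 to 5.88 against 1.28 to 1.76 (at least 3.78-fold, adjusted p = 4.20e-05). LOC_Os12g28550, an ATPase of the AAA type, was 6.24-fold higher in the IR64 background, with 4.77, 5.91 and 6.45 in IR64-WT and 5.30 and 5.66 in IR64-Tr-E2, against 2.76, 2.34 and 3.46 in NIL-481-B and 3.11 and 2.98 in Vandana (SE 0.36, adjusted p = 0.0113). The 2 loci lower in the IR64 background were LOC_Os12g27540 (1.38 to 1.80 against 2.56 to 4.69, adjusted p = 0.0392) and LOC_Os12g28500 (3.04 to 4.19 against 4.97 to 5.64, adjusted p = 0.049). Of the 13 genes of qDTY12.1 on which the study centres, 0 were called. The largest difference among them was at LOC_Os12g29300, a gene of cellulose synthase, which builds the cell wall. It read 2.89, 3.76 and 3.04 in IR64-WT and 1.20 and 3.56 in IR64-Tr-E2, against 2.36, 1.11 and 1.12 in NIL-481-B and 1.23 and 1.18 in Vandana. Only 1 array, in the IR64 background, was well above background there (difference 1.44, SE 0.49, adjusted p = 0.407). The paper reports that Vandana lacks this gene, while NIL-481-B carries the Way Rarem segment of the region. The mean of the Vandana background thus joins a line reported to lack the gene with a line that may hold it.

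The same backgrounds were compared on the 12 drought arrays, which share no array with those above. Under drought all 4 genotypes dried down from 75% of field capacity, so that the well-watered difference in soil water was not set in that treatment. Both treatments were normalised together on 22 arrays and fitted with a mean for each genotype and treatment. Under drought 1847 of 52901 probes (3.49%) were called, and 588 of the 713 well-watered calls were among them in the same direction. This was 82.5% of the well-watered calls and 31.8% of the drought calls. The 713 came from the fit of the well-watered arrays alone, and the drought calls from the fit of 22 arrays. With the spread from 22 arrays, 1268 probes were called when well watered, and 383 passed at Bonferroni. The 31.8% thus sets calls of unlike fits side by side. It is not read as the share of drought calls that were present when well watered. Of the 713, 695 had the same sign under drought and 622 also exceeded 2-fold, while 18 had the opposite sign and 0 were called the opposite way. At Bonferroni 514 probes passed under drought (0.972%). Of the 123 loci of the stricter set 122 were called the same way under drought at Benjamini-Hochberg. Across the 713 probes, which are not independent and were chosen for their well-watered difference, the differences in the 2 treatments had r = 0.955 and rho = 0.952. LOC_Os11g04790 differed by 2.44 under drought (SE 0.29, adjusted p = 3.02e-05) and LOC_Os08g06415 by -4.79 (SE 0.27, adjusted p = 3.20e-09). SALT differed by -2.24 (SE 0.55, adjusted p = 0.0259).

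**Figure D5:**
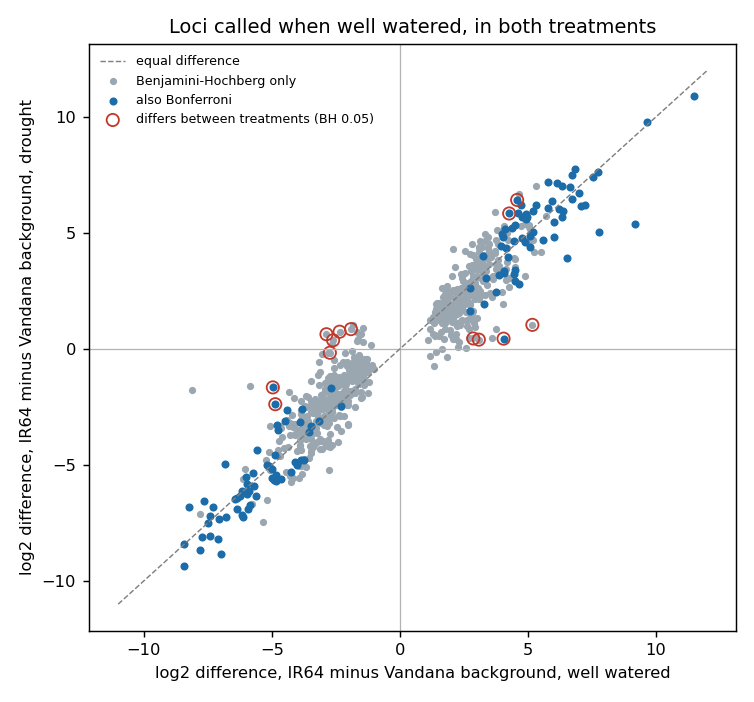
Difference between backgrounds on the log2 scale when well watered (horizontal axis) and under drought (vertical axis) for the 713 called probes, both from the fit of 22 arrays, with the stricter 123 in blue. Points lie along the dashed line of equal difference (r = 0.955), and red circles mark the 13 whose difference changed between treatments.

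The difference between backgrounds itself changed between treatments at 6 of 52900 probes at Bonferroni (0.0113%) and at 26 at Benjamini-Hochberg (0.0491%), both at more than 2-fold. With Vandana well-watered replicate 2 kept, 5 and 13 passed, and under the 75th-percentile shift 0 and 0 (1922 at an unadjusted p below 0.05). Without Vandana well-watered replicate 1 or IR64-Tr-E2 well-watered replicate 1, 38 and 27 passed at Bonferroni. Of the 26, 13 were among the 713 well-watered calls. The loci that follow were named after their values were seen. LOC_Os11g45950 on chromosome 11 ranged from 1.02 to 1.35 in the IR64 background and from 5.15 to 6.90 in the Vandana background when well watered, and from 1.01 to 1.03 and from 2.04 to 3.58 under drought. The well-watered minus the drought difference was -3.30 (SE 0.37, adjusted p = 0.00286). At LOC_Os03g48320, the RPP13-like gene, the IR64 background read 1.13 to 4.21 when well watered and 5.73 to 6.39 under drought, and the other 7.14 to 8.03 and 8.12 to 9.28. The well-watered minus the drought difference was -2.48 (SE 0.33, adjusted p = 0.00747). LOC_Os07g35080 was the only locus of the stricter set not called under drought. It was at least 4.98-fold higher in the IR64 background when well watered and differed by 0.45 on the log2 scale under drought (SE 0.34), and the test of the change passed (adjusted p = 0.013). At LOC_Os11g45950 and LOC_Os07g35080 a background was well above background on no well-watered array, so that the size of the change depends on the floor.

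The cupin, thaumatin and BURP genes were called when well watered and not under drought, and the test of the change between treatments did not pass. The cupin gene LOC_Os08g08960 ranged from 2.70 to 6.17 and from 8.55 to 11.61 when well watered, but from 11.35 to 13.61 and from 11.61 to 15.52 under drought, where all 12 arrays were bright (drought difference -1.58, SE 0.68, change -4.25, SE 1.02, adjusted p = 0.299). The thaumatin gene LOC_Os12g43440 ranged from 8.33 to 10.40 and from 5.09 to 6.32 when well watered, and from 7.95 to 9.94 and from 7.33 to 9.42 under drought, where the backgrounds overlapped (drought difference 0.48, change 3.11, SE 0.60, adjusted p = 0.124). The BURP gene LOC_Os06g19800 differed by -1.81 when well watered and by 1.03 under drought (drought adjusted p = 0.31, adjusted p of the change = 0.257). At 4 further probes called for this change, LOC_Os02g15500, LOC_Os06g13280, LOC_Os08g16950 and LOC_Os10g20540, the Vandana background stayed at or below 2.04 in both treatments. The IR64 background read between 3.48 and 6.71 there under drought and between 1.1 and 3.96 when well watered.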

How the data were processed

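Root RNA of 10 well-watered arrays (23 in the series) was labelled and hybridised to a custom 1-colour Agilent array, and scanned images were extracted with Feature Extraction (version 11.5.1.1 per the file headers). The deposited intensity used here is the processed signal, which the authors' extraction had background-corrected, with other deposited flags for spots well above background, saturated spots and outliers. Control spots and outlier spots were left out, log2 was taken, spots of a probe were averaged and arrays were quantile normalised in limma 3.58.1 (R 4.3.3). The authors' deposited log2 table, quantile normalised and centred on each probe's median, matched these values (r = 1.00) and was an alternative. A mean was fitted for each genotype and water treatment, and the mean of IR64-WT and IR64-Tr-E2 was set against that of NIL-481-B and Vandana, with empirical Bayes and p adjusted over all 52900 probes tested. All adjusted p values are from limma, by Benjamini-Hochberg unless Bonferroni is named. Where a background had no array well above background, the bound compares the bright group's mean with, per dim array, the dimmest probe that was well above background, or the measured value if higher. Named genes were the loci past Bonferroni without overlap between backgrounds and well above background on all 10 arrays (at most 10 each way). Also named were the 5 largest bounds each way, the longest runs, the calls in qDTY12.1, list members and loci with a description. Lists and their loci were set from general knowledge of rice, or from the paper for qDTY12.1. For 106 of 165 loci the RefSeq table holds a gene of that symbol on the same chromosome, which does not check the locus itself. Loci without such a match are named only where the paper names them, and still count in the list totals and medians. Members and lists were chosen with earlier results of these data known. Slide, replicate number, scaling, background correction, a filter on dim probes, each array and each line left out were tried as alternatives. The number of arrays limits the precision.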

Additional observations from a re-analysis of the deposited data

Results flagged for a closer look

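In 14 of 86 combinations of a named locus and a background, 1 of the 5 arrays stood apart by Dixon's criterion (16.3%, where chance gives about 1 in 20). In the IR64 background these were IR64-WT replicate 2 at LOC_Os05g06530 (log2 signal 5.47), IR64-Tr-E2 replicate 1 at LOC_Os11g19149 (2.71) and IR64-Tr-E2 replicate 3 at LOC_Os11g29014 (4.19). In the Vandana background Vandana replicate 3 stood apart at 6 loci: LOC_Os08g08360 (1.45), LOC_Os11g14544 (8.90), LOC_Os11g19149 (8.75), LOC_Os06g16040 (5.47), LOC_Os06g16050 (6.87) and LOC_Os03g48320 (6.65). That array had the lowest share of spots well above background (31.6%), and the part of this in its values was not tested. NIL-481-B replicate 1 stood apart at LOC_Os11g29050 (1.53) and at LOC_Os12g29300 (2.36), NIL-481-B replicate 3 at LOC_Os11g29014 (1.68) and at OsFBX240 (LOC_Os07g35130, 1.83), and Vandana replicate 1 at LOC_Os11g46860 (2.26). At LOC_Os12g29300 the backgrounds overlapped, and at the other loci they did not. The rate of 1 in 20 is for normally distributed values. Some flags lie in a background with no array well above background, such as the Vandana background at LOC_Os11g29050, LOC_Os08g08360 and LOC_Os11g46860. Signals there lie at the floor, so that this rate may not hold.

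The difference between backgrounds changed between well-watered and drought treatment at 26 probes by the test of the change itself (Benjamini-Hochberg in limma). The 9 loci named here were LOC_Os02g15500 (-2.78 on the log2 scale, well watered minus drought), LOC_Os11g45950 (-3.30), LOC_Os08g16950 (-3.88), LOC_Os06g13280 (-3.66), LOC_Os10g20540 (-3.70), LOC_Os11g21900 (1.15), LOC_Os03g48320 (-2.48), LOC_Os07g35080 (3.61) and, in qDTY12.1, LOC_Os12g27980 (-1.57). Where a background was not well above background, these sizes depend on the floor. At LOC_Os11g21900 the Vandana background joined unlike lines under drought. Vandana read 3.10 to 3.24 there, and NIL-481-B 1.15 to 1.20, beside 1.12 to 1.23 in the IR64 background. The change at that locus was thus in Vandana alone and not shared by NIL-481-B. Soil water differed between the backgrounds in the well-watered treatment, so that a change with treatment and a change with that difference cannot be told apart.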

How the results depend on the processing

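The count of 123 loci past Bonferroni (63 higher, 60 lower in the IR64 background) rests on the spread between few arrays. It was 69 (35 and 34) under the 75th-percentile shift, 201 (98 and 103) with a filter on dim probes, 6 (4 and 2) with slide as a block, 194 (101 and 93) with 2 means and 61 (30 and 31) without the line IR64-Tr-E2. Without the line NIL-481-B it was 9 (4 and 5), and with the spread taken from 22 arrays 383 (183 and 200). At Benjamini-Hochberg it was 713 (336 and 377). Leaving out each array gave 60 to 98, with 28 to 45 higher and 30 to 59 lower. The 713 became 285 with normexp, 319 with slide as a block, 1268 with the spread of 22 arrays, 440 without IR64-Tr-E2 and 193 without NIL-481-B, and 452 to 965 with an array left out. With the replicate block it was 45 (23 and 22) at Bonferroni and 558 at Benjamini-Hochberg, and all 123 loci stayed called at the latter. Same-numbered arrays' deviations correlated from -0.21 to 0.55, and the numbers were not taken to pair the arrays. Vandana and IR64-Tr-E2 had 2 arrays each, whose deviations mirror each other, so that correlations with them cannot decide on pairing. The paper states that plants stood in randomized complete blocks, and whether replicate numbers follow the blocks is not given. With Vandana well-watered replicate 2 kept under its label, all 4 counts were 0, and 713 of 713 differences kept their direction. That array only joined the arrays on which the probes were called. The direction was thus largely fixed in advance and is no separate support for the calls.

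The count of changes between treatments (6) was 0 under the 75th-percentile shift, 2 with normexp, 1 with slide as a block, 5 with the replicate block and 26 at Benjamini-Hochberg. It ranged from 2 to 38 with an array left out, 38 without Vandana well-watered replicate 1 and 27 without IR64-Tr-E2 well-watered replicate 1. The 0 calls between IR64-Tr-E2 and IR64-WT ranged from 0 to 4, and those between NIL-481-B and Vandana from 0 to 18, the latter without Vandana replicate 1. The 514 drought calls at Bonferroni were 305 with normexp, 271 with the array kept, and 399 to 552 with an array left out. The 1 called list member was 0 with slide as a block, the replicate block, the array kept and without either line, and 0 to 2 with an array left out. The difference of OsNAM12.1 turned positive with normexp (0.043), with the array kept (0.036), and without NIL-481-B replicate 3 (0.027), IR64-Tr-E2 replicate 3 (0.057) or Vandana replicate 3 (0.088), within a range of -0.17 to 0.088 with an array left out. The cause of these changes was not tested. Of the alternatives, 4 were chosen after seeing the data.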
